A study of Mus musculus with 4 samples.

Results

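Heat shock proteins and their co-chaperones were followed in RNA from sorted kidney cells of mouse embryos. The members were every row of the deposited expression table whose gene symbol names an Hsp70, Hsp90, Hsp110 or small heat shock protein, a chaperonin of the Hspd or Hspe type, a DnaJ protein of class A, B or C, a Bag co-chaperone or the heat shock factors Hsf1 and Hsf2, with pseudogenes left out. This gave 81 of the 38201 rows, for 80 symbols, because Hspa14 stands on 2 gene identifiers. By textbook knowledge 14 of them were set apart as heat-inducible, 7 as induced by stress of the endoplasmic reticulum (ER), and the remaining 60 were treated as constitutive. These and all other gene lists were drawn up with earlier results of these data known, including values of Hspa1a and Hspa1b.

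The study asked what the loss of the epithelial splicing factor Esrp1 does to the ureteric epithelium, the branching tube from which the collecting ducts of the kidney form. Cells that bound the lectin DBA were sorted from collagenase-digested kidneys at embryonic day 18.5, and RNA from 3 embryos was pooled for each library. The DKO group (Esrp1 -/-, Esrp2 -/-) and the control group (Esrp1 +/+, Esrp2 -/-) had 2 libraries each, so all 4 libraries lacked Esrp2, no wild type was compared, and both alleles were germline knockouts carried by every cell of the embryo. Values are FPKM, fragments scaled to transcript length and to the mapped fragments of a library, and are given for replicates 1 and 2 of each group in that order.

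The targeted gene Esrp1 stood at 8.65 and 7.29 FPKM in DKO and 27.0 and 31.4 FPKM in control, and Esrp2, knocked out in every library, at 1.35 and 0.519 FPKM against 1.72 and 0.802 FPKM. Esrp1 was thus lower in both DKO libraries but not at 0 in either. By real-time PCR on RNA of the same replicates, the paper reported ablation of Esrp1 in DKO. All 11 markers of the ureteric bud and collecting duct were above 0 in every library. Their summed levels were 1572 and 1671 FPKM in DKO and 1154 and 1599 FPKM in control, with control replicate 1 the lowest. Both DKO libraries lay above both controls in 5 of the 11 (45.5%, against 20.8% of all genes tested). They lay below both in 1 (9.09%, against 22.6%), and the groups overlapped in 5. The deposited columns summed to between 581976 and 678178 FPKM, with 18174 to 19275 genes above 0. Control replicate 1 stood apart from the other libraries in depth: its relative depth, read from the steps between low FPKM values, was 0.508 against 1 to 1.10 elsewhere. It was the highest of the 4 libraries for 36.6% of the 18884 genes tested. Mitochondrial genes took 19.1% and 18.6% of the FPKM in DKO and 25.5% and 23.2% in control. This share and the column sums were thus higher in both controls than in both DKO libraries, and their part in the levels of the members was not tested. Values without control replicate 1 are given beside several of the members below.

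Chaperones of the Hsp70 family bind stretches of unfolded protein and release them in a cycle driven by ATP. DnaJ proteins (J proteins) bring the client and stimulate the ATPase, Bag proteins and Hsp110 proteins exchange the nucleotide, Hsp90 acts on nearly folded clients such as kinases and steroid receptors, small heat shock proteins hold aggregating proteins without ATP, and chaperonins enclose a client in a chamber. In the heat shock response Hsf1 binds repeated nGAAn units in promoters and raises the inducible members within minutes, while the unfolded protein response acts through separate promoter elements on the chaperones of the ER.

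The promoters that carry these elements are shown first, because the heat-inducible and ER stress-inducible classes are known for them. The classes themselves were set by textbook knowledge and not by a motif. RefSeq promoter windows (build GRCm38.p6, the assembly called mm10) covered the 250 bases before and 50 bases after each start, and 64 members had at least 1 window. The windows of Hspa1a (chr17:34972107-34972406, minus strand), Hspa1b (chr17:34959189-34959488, minus strand), Hsph1 (chr5:149636287-149636586, minus strand) and Hspe1 (chr1:55087898-55088197, plus strand) are printed with pairs of inverted heat shock units in capitals, and that of Hspa5 (chr2:34771840-34772139, plus strand) with its ER stress element in capitals.
Hspa1a: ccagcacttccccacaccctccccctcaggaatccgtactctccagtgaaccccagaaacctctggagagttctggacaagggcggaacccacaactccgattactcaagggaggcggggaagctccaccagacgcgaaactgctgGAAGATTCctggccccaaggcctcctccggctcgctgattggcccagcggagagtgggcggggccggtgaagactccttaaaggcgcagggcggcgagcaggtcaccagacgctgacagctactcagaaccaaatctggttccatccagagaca
Hspa1b: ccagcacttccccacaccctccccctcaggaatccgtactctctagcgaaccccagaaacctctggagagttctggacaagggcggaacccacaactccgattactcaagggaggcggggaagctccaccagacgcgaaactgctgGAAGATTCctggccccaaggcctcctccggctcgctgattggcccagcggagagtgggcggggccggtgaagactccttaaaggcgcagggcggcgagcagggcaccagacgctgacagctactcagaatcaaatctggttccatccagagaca
Hsph1: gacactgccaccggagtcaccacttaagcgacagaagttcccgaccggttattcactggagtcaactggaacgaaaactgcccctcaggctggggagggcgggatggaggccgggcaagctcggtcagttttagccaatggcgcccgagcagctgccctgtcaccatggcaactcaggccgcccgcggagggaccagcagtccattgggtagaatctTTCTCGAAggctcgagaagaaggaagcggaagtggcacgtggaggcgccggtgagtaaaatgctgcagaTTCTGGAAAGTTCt
Hspe1: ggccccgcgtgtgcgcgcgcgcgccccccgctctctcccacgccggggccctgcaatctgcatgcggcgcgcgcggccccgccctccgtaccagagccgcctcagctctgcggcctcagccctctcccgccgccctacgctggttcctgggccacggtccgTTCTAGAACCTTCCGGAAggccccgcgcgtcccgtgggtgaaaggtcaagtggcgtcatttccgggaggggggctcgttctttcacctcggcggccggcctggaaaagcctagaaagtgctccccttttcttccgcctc
Hspa5: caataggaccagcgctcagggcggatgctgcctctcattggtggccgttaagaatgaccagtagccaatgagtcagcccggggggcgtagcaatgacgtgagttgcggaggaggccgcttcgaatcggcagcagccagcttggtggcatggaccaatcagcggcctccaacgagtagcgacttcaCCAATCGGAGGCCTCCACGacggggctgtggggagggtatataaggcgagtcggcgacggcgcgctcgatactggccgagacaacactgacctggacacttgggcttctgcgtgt

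The pair was searched as GAANNTTC or TTCNNGAA, both of which read the same on the 2 strands and overlap where 3 units follow each other. It was found in 15.1% of all 32851 promoter windows of this length, or in 17.0% of 27025 genes. Among the members it was found for 11 of 13 heat-inducible genes with a window, 1 of 6 ER stress-inducible genes and 5 of 45 constitutive genes. A run of 3 alternating units occurred in 0.662% of genes and in 4 members, namely Hsph1, Hspd1, Hspe1 and Dnajb6. Hspd1 and Hspe1, which encode the chamber and the lid of the mitochondrial chaperonin, start back to back and share the same run. The heat-inducible genes without a pair were Dnajb1, which had 2 windows, and Hspa4l. The ER stress element, CCAAT and CCACG separated by 9 bases, occurred in 0.137% of genes and in Hspa5, Hsp90b1 and Dnajc3. A match is a description of letters and not evidence of binding.

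Hspa1a and Hspa1b encode the same inducible cytosolic Hsp70 and lie next to each other on chromosome 17. In each of them the pair of units began at position -104 relative to the start. Their 2 windows had the same base at 296 of 300 positions (98.7%), with an identical run of 201 bases. The similarity went on into the transcripts, where 47.1% of the 2868 stretches of 100 bases in Hspa1a occurred unchanged in Hspa1b. How the authors' quantification divided such reads between the genes was not given in the sources used here, so the level of each gene is uncertain and their sum is also reported.

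The largest differences among the members were those of Hspa1a and Hspa1b. Hspa1a (mm10, chromosome 17, 34969190 to 34972156, minus strand) was listed at 8.80 and 4.05 FPKM in DKO and at 116 and 32.5 FPKM in control. Hspa1b (chromosome 17, 34956436 to 34959238, minus strand) was listed at 11.5 and 6.46 FPKM in DKO and at 91.9 and 37.3 FPKM in control. Both DKO libraries lay below both control libraries for each gene, and in each gene control replicate 1 was the highest and DKO replicate 2 the lowest.

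The average of Hspa1a was 6.43 ± 3.36 FPKM in DKO and 74.1 ± 58.9 FPKM in control (SD, n = 2), so that the control average was 11.5-fold the DKO average. For Hspa1b the averages were 8.98 ± 3.56 and 64.6 ± 38.6 FPKM, a 7.19-fold difference. On the log2(FPKM + 0.5) scale, which understates the change of low genes, the DKO minus control difference was -3.25 (SE 0.675) for Hspa1a and -2.69 (SE 0.493) for Hspa1b. Only 15 of the 18884 tested genes had a lower value than Hspa1a and 28 a lower value than Hspa1b. Neither gene passed the test across all genes: limma gave unadjusted p of 0.00505 and 0.00295, and Benjamini-Hochberg adjusted p of 0.380 and 0.365. An exact two-sided permutation test of 2 against 2 libraries cannot give a p below 0.333.

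The spread between replicates was wide for both genes. In control, replicate 1 was 3.56-fold replicate 2 for Hspa1a and 2.47-fold for Hspa1b, and in DKO replicate 1 was 2.17-fold and 1.78-fold replicate 2. Without control replicate 1 the log2 differences were -2.34 for Hspa1a and -2.05 for Hspa1b, the smallest values obtained by leaving out a library. Without DKO replicate 2 the unadjusted p was 0.0956 for Hspa1a and 0.0693 for Hspa1b, and without DKO replicate 1 it was 0.0516 for Hspa1a. The sum of both genes, which is less affected by how shared reads were divided between them, was 20.3 and 10.5 FPKM in DKO and 208 and 69.8 FPKM in control. Set against Hspa8, the constitutive cytosolic Hsp70, the sum was 3.16% and 1.52% of its level in DKO and 38.1% and 9.18% in control. In a bulk sample fewer cells of a type and less RNA per cell cannot be told apart.

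**Figure D1:**
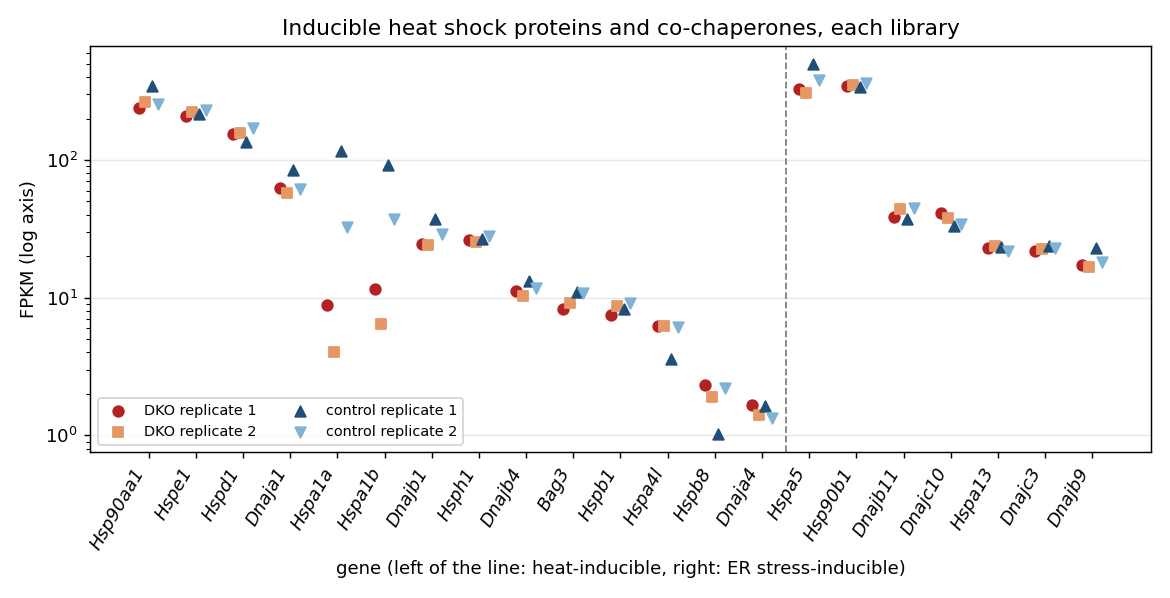
FPKM on a log axis of each of the 14 heat-inducible and 7 ER stress-inducible members, with 1 point for each of the 4 libraries. The points of most genes lie close together, while for Hspa1a the DKO libraries are at 8.80 and 4.05 FPKM and the control libraries at 116 and 32.5 FPKM.

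Across the whole set, 75 members had a larger group average above 0.1 FPKM and were tested. The others were Hspa1l, a testis-type Hsp70, at 0.0482 to 0.0898 FPKM, and Dnajb8, Dnajc5b, Dnajc5g, Hspb3 and Hspb9, which were listed at 0 in all 4 libraries. A gene was called at an adjusted p under 0.05 with averages at least 2-fold apart. By limma no member was called lower, against a background of 0.0053% of the genes tested, and none was called higher, against 0.0159%. At an unadjusted p under 0.05, 4 members were lower in DKO (5.33%, against 7.35% of all genes tested) and 2 were higher (2.67%, against 3.35%). Both DKO libraries lay below both controls in 18 members (24.0%, against 22.6% of all genes), and above both in 11 (14.7%, against 20.8%). The counts for the members as a whole were thus near or under the background of all genes.

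The median log2 difference over the 75 tested members was -0.0172, beside -0.00916 over all 18884 genes, and 72 of the 75 lay within 0.5 of 0. The 3 outside were Hspa1a, Hspa1b and Dnajb3. Summed over the 81 members, the level was 4887 and 5017 FPKM in DKO and 5180 and 5209 FPKM in control, and without Hspa1a and Hspa1b it was 4866 and 5007 FPKM against 4973 and 5139 FPKM. The groups of libraries overlapped once the pair was left out.

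**Figure D2:**
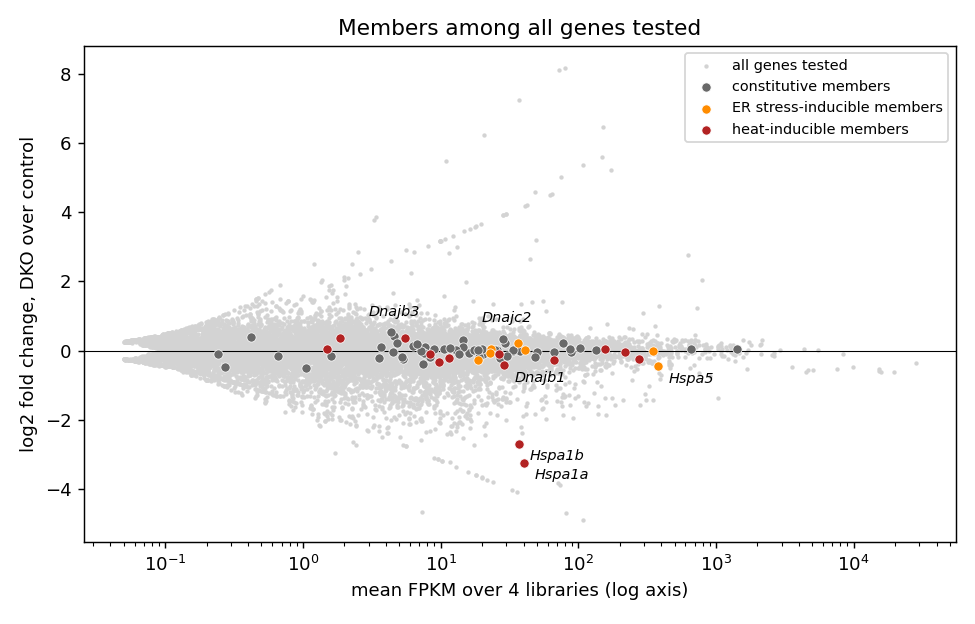
Log2 difference of DKO over control on the log2(FPKM + 0.5) scale against the mean FPKM of the 4 libraries on a log axis, for all 18884 genes tested (grey) and the 75 tested members (coloured by class). The 6 members with an unadjusted p under 0.05 are named, and 72 members lie within 0.5 of 0 while Hspa1a and Hspa1b lie at -3.25 and -2.69.

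Among the 14 heat-inducible members, 3 were lower in DKO at an unadjusted limma p under 0.05 (21.4%, against 7.35% of all genes). These were Hspa1a, Hspa1b and Dnajb1, of which the first 2 share long identical stretches. At that p 0 were higher (3.35% of all genes), and the median log2 difference over the 14 was -0.16. That median was -0.035 after rescaling to a common sum (TPM), which moved the median of all genes from -0.00916 to 0.112. For a core list of 7 of these genes the median was -0.32. Both DKO libraries lay below both controls in 6 of the 14 (42.9%, against 22.6% of all genes). They lay above both in 1 (7.14%, against 20.8%), and the groups overlapped in 7. Of these 14 genes, 7 were highest in control replicate 1, and without that library 9 of 14 lay below the remaining control, a position held by 36.8% of all genes. With Hspa1a and Hspa1b left out, 1 of 12 was lower at an unadjusted p under 0.05 (8.33%, against 7.35% of all genes). The median was then -0.10. The sum of the 12 was 755 and 789 FPKM in DKO and 881 and 819 FPKM in control.

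Of the cytosolic J proteins that work with inducible Hsp70, Dnajb1 (Hsp40) was at 24.4 and 24.3 FPKM in DKO and at 37.2 and 29.2 FPKM in control, a log2 difference of -0.43 (SE 0.147) with an unadjusted p of 0.0336 and an adjusted p of 0.429 by limma. Its control libraries were both higher, with replicate 1 the highest. Without control replicate 1 the log2 difference of Dnajb1 was -0.26. After rescaling to a common sum (TPM) it was -0.30 (unadjusted limma p 0.0837), where the median of all genes was 0.112. Dnaja1, which is farnesylated and also serves Hsp70, was at 63.2 and 57.6 FPKM in DKO and at 85.2 and 61.9 FPKM in control, where the lower control overlapped the DKO range. The log2 difference of Dnaja1 was -0.27, and -0.04 without control replicate 1. Dnajb4, a close relative of Dnajb1, was at 11.1 and 10.3 FPKM against 13.2 and 11.7 FPKM. Dnaja4 was among the lowest of the class, at 1.67 and 1.40 FPKM against 1.63 and 1.33 FPKM, with overlapping groups.

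Bag3, the co-chaperone that joins Hsp70 to small heat shock proteins and to selective autophagy, was at 8.22 and 9.11 FPKM in DKO and 11.0 and 10.8 FPKM in control, a log2 difference of -0.32 with an unadjusted p of 0.0738. The 2 groups did not overlap. Hsph1, the inducible Hsp110 whose promoter is printed above, was at 26.1 and 25.2 FPKM against 26.8 and 28.0 FPKM. It lay lower in both DKO libraries, with a log2 difference of -0.10 and an unadjusted p of 0.392.

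The inducible cytosolic Hsp90, Hsp90aa1, was at 240 and 265 FPKM in DKO and 342 and 256 FPKM in control. Control replicate 1 alone was high, and the log2 difference was -0.23 with an unadjusted p of 0.249, and -0.02 without that library. Of the 100-base stretches of Hsp90aa1, 47.6% also occurred in other genes, so its level is uncertain. Hspa4l, an Hsp110 relative prominent in testis, was the only heat-inducible gene with both DKO libraries above both controls, at 6.20 and 6.25 FPKM against 3.58 and 6.09 FPKM. Here control replicate 1 alone was low, and the log2 difference was 0.37 with it and 0.03 without it.

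The heat-inducible small heat shock proteins and the chaperonin overlapped between the genotypes. Hspb1 (Hsp25) was at 7.48 and 8.68 FPKM in DKO and 8.32 and 9.17 FPKM in control. Hspb8, the partner of Bag3, was at 2.31 and 1.90 FPKM against 1.03 and 2.22 FPKM. In both genes the groups overlapped. Shared 100-base stretches made up 42.7% of Hspb1, 26.9% of Hspd1 and 20.4% of Hspe1, so the levels of these genes are uncertain. Hspd1 (Hsp60) was at 155 and 158 FPKM against 136 and 171 FPKM, and Hspe1 (Hsp10) at 209 and 222 FPKM against 214 and 232 FPKM. Of the members with a run of 3 heat shock units, the groups thus overlapped in Hspd1 and Hspe1, and also in Dnajb6. Hsph1, which has such a run too, lay lower in both DKO libraries by a small margin.

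**Figure D3:**
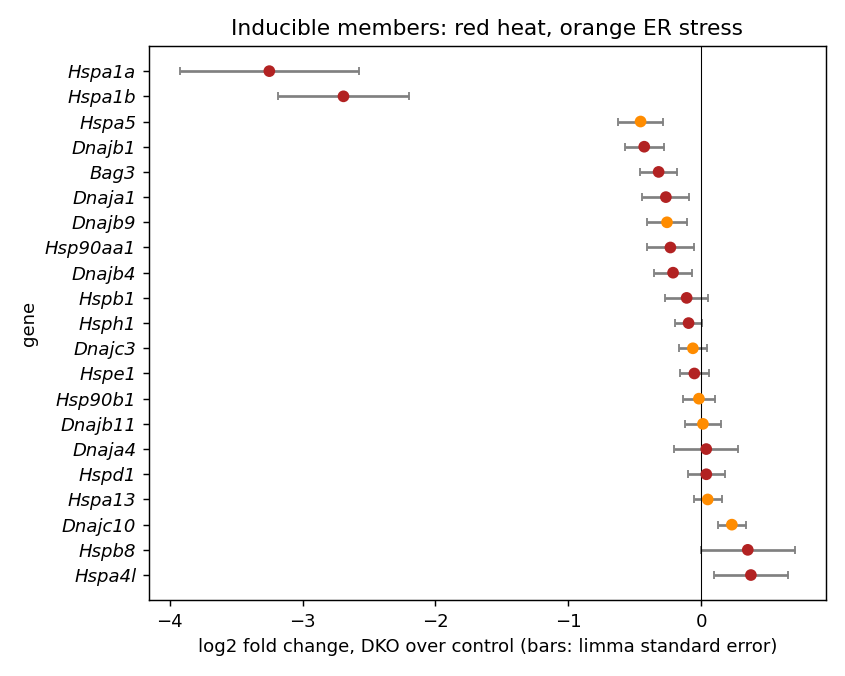
Log2 difference of DKO over control on the log2(FPKM + 0.5) scale for each heat-inducible (red) and ER stress-inducible (orange) member, with bars of 1 limma standard error. Hspa1a (-3.25) and Hspa1b (-2.69) lie apart from the other 19 genes, which run from -0.46 for Hspa5 to 0.37 for Hspa4l.

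The 7 ER stress-inducible members had a median log2 difference of -0.0172. In 3 of them both DKO libraries lay below both controls (22.6% of all genes), in 1 above (20.8% of all genes), and in 3 the groups overlapped, counts too small to set apart from the background. Hspa5 (BiP), the Hsp70 of the ER lumen, was at 330 and 305 FPKM in DKO and at 496 and 383 FPKM in control, a log2 difference of -0.46 (SE 0.170) with an unadjusted p of 0.0443 and an adjusted p of 0.455 by limma. Both controls were higher, with replicate 1 the highest. Without control replicate 1 the log2 difference of Hspa5 was -0.27. After rescaling to a common sum (TPM) it was -0.32 (unadjusted limma p 0.0999), where the median of all genes was 0.112. Hsp90b1 (Grp94), the ER Hsp90, whose window also held the ER stress element, was at 343 and 353 FPKM against 340 and 364 FPKM, and its groups overlapped.

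Of the remaining ER members, 4 are J proteins that work with Hspa5, and Hspa13 is itself an Hsp70-type protein of the ER. Dnajb9 (ERdj4), which feeds clients to ER-associated degradation, was at 17.3 and 16.6 FPKM in DKO and 22.8 and 18.2 FPKM in control, without overlap (log2 difference -0.26, unadjusted p 0.143, and -0.10 without control replicate 1). Dnajc10 (ERdj5), a disulfide reductase, had both DKO libraries above both controls, at 41.4 and 38.0 FPKM against 33.0 and 34.5 FPKM (0.23, unadjusted p 0.0759). Dnajc3 (p58IPK), an inhibitor of eIF2alpha kinases, was at 21.8 and 22.7 FPKM against 23.6 and 23.0 FPKM, a log2 difference of -0.06. The groups did not overlap for these 3 genes, but the directions were mixed. Dnajb11 (ERdj3) at 38.7 and 44.1 against 37.6 and 44.6 FPKM and Hspa13 at 23.1 and 23.8 against 23.4 and 21.9 FPKM overlapped.

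The levels of the members spanned a wide range. Of the 81 members 9 had a mean of 100 FPKM or more, 38 lay from 10 to 100, 24 from 1 to 10 and 10 below 1. Hsp90ab1, the constitutive cytosolic Hsp90, was at 1440 and 1477 FPKM in DKO and 1372 and 1427 FPKM in control, on average 28.2% of the summed level of the members. Hspa8 (Hsc70) followed with 643 and 693 FPKM against 545 and 760 FPKM, 13.0% of the sum. Hsp90ab1 lay higher in both DKO libraries by a small margin, while the groups of Hspa8 overlapped. In Hspa8, 62.8% of the 100-base stretches of its transcripts occurred in 7 other genes (58.5% in Gm15459 alone), so its level is uncertain as well.

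Among the 54 tested constitutive members, 0 had an unadjusted limma p under 0.05 with the lower level in DKO (7.35% of all genes). With the higher level there were 2 (3.70%, against 3.35% of all genes). The median log2 difference was 0.0146, the range -0.49 to 0.53, and 53 members lay within 0.5 of 0. Both DKO libraries lay below both controls in 9 (16.7%, against 22.6% of all genes). They lay above both in 9 (16.7%, against 20.8%) and overlapped them in 36. The 2 genes with the low p were Dnajc2 and Dnajb3. Dnajc2, the ribosome-associated J protein called zuotin in yeast, was at 31.6 and 32.4 FPKM in DKO and 24.8 and 25.4 FPKM in control, with replicates close together in both groups (log2 difference 0.35, SE 0.0983, unadjusted p 0.0175, adjusted p 0.389 by limma). Dnajb3, a J protein first known from testis, was at 5.10 and 5.33 FPKM against 3.50 and 3.43 FPKM (0.53, SE 0.184, unadjusted p 0.0357, adjusted p 0.431). Its gene (chromosome 1, 88204732 to 88205782, minus strand) lies inside the spans of 8 Ugt1a genes of the opposite strand and of Gm20528 on its own strand, so its level is uncertain.

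Some less abundant constitutive members separated the groups with p values above 0.05. Dnajb14, a J protein of the ER membrane, was at 6.93 and 5.83 FPKM in DKO and 9.90 and 7.20 FPKM in control, and Dnajc6 (auxilin), which uncoats clathrin vesicles, at 0.748 and 0.827 FPKM against 1.02 and 1.64 FPKM. Dnajc1, an ER J protein that also contacts the ribosome, was at 18.2 and 14.4 FPKM against 12.8 and 13.2 FPKM, and Hspa12b, an Hsp70 relative of endothelial cells, at 4.75 and 5.80 FPKM against 3.44 and 4.23 FPKM. The first pair lay lower and the second pair higher in both DKO libraries. Dnajb13 and Dnajb7 were listed at 0 in control replicate 2 only, at 0.900 and 0.573 FPKM in control replicate 1, and at 0.0875 to 0.285 FPKM in DKO.

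Other Hsp70 proteins and their exchange factors overlapped between the genotypes where they were abundant. Hspa9 (mortalin), the mitochondrial Hsp70, was at 135 and 134 FPKM in DKO and 120 and 147 FPKM in control, and Hspa4 (Apg-2), an Hsp110, at 79.4 and 85.8 FPKM against 61.4 and 80.6 FPKM. In both, control replicate 1 was the lowest library, opposite to its place in Hspa1a. Of 14 tested rows of this family 5 lay below both controls (22.6% of all genes), 3 above both (20.8% of all genes) and 6 overlapped.

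The J proteins were the largest family, with 42 of 45 rows tested. Of these 11 lay below both controls (26.2%, against 22.6% of all genes), 6 above both (14.3%, against 20.8%) and 25 overlapped, with a median log2 difference of -0.0423. Dnajc7 (Tpr2), which shuttles clients between Hsp70 and Hsp90, was the most abundant at 99.9 and 111 FPKM in DKO and 115 and 87.4 FPKM in control. Dnajc8, found with spliceosomes, was at 62.2 and 68.9 FPKM against 74.2 and 62.3 FPKM, and Dnajc5, the cysteine string protein of vesicles, at 47.7 and 43.6 FPKM against 56.6 and 47.5 FPKM. The groups of these 3 overlapped. Dnaja2 lay lower in both DKO libraries, but by a small margin, at 49.8 and 49.1 FPKM against 50.9 and 51.6 FPKM.

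Of the Bag proteins, 2 of 6 lay below both controls (22.6% of all genes) and none above both (20.8% of all genes). Bag1, a nucleotide exchange factor that also binds Bcl2, was at 84.4 and 88.6 FPKM in DKO and 84.6 and 94.8 FPKM in control, and Bag6, which handles tail-anchored proteins, at 90.2 and 86.0 FPKM against 81.7 and 88.1 FPKM. Bag2, an inhibitor of the ubiquitin ligase Chip, was at 23.1 and 26.4 FPKM against 26.9 and 31.3 FPKM and, with Bag3, made up the 2. Bag5 was at 15.6 and 15.7 FPKM against 18.3 and 15.1 FPKM and Bag4 at 11.4 and 10.3 FPKM against 10.4 and 10.5 FPKM, with overlap in both.

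The transcription factors overlapped too. Hsf1, the main factor of the heat shock response, was at 19.9 and 17.9 FPKM in DKO and 20.0 and 17.3 FPKM in control, and Hsf2 at 9.09 and 9.07 FPKM against 9.59 and 7.88 FPKM. Hsf1 is held inactive by chaperones until stress, so its RNA level is not a measure of its activity. Of the constitutive small heat shock proteins, Hspb11, a part of the ciliary transport complex, was at 12.8 and 13.4 FPKM against 12.7 and 15.4 FPKM, Hspb6 at 5.63 and 8.91 FPKM against 6.98 and 5.36 FPKM, and Hspb7 at 0.585 and 0.595 FPKM against 0.467 and 1.00 FPKM. The groups overlapped in all 3, of which Hspb6 and Hspb7 are best known from muscle. Muscle genes themselves summed to 48.5 and 64.1 FPKM in DKO and 16.1 and 42.2 FPKM in control, and their part in the levels of Hspb6 and Hspb7 was not tested.

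How closely replicates matched was measured over the 73 members above 0 in every library. The median absolute log2 ratio of the replicates was 0.114 for the DKO pair and 0.273 for the control pair, beside 0.154 and 0.299 over 16980 genes. Replicates differed by over 1.5-fold in 3 members of the DKO pair (4.11%, against 13.5% of these genes) and 10 of the control pair (13.7%, against 25.6%). As a whole the members were no more variable between replicates than genes at large, which were not matched for level. For the 14 heat-inducible members the medians were 0.137 and 0.337, and 14.3% and 28.6% differed by over 1.5-fold. Hspa1a and Hspa1b were among those over 1.5-fold in both pairs.

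Other genes of the same pathways were read from lists chosen by textbook role. The 20 further partners and targets of the heat shock response had a median log2 difference of 0.0774. Of these 2 lay below both controls (10%, against 22.6% of all genes), 4 above both (20%, against 20.8%) and 14 overlapped. Abundant genes among them were Ubb (626 and 675 FPKM against 726 and 630 FPKM), the collagen chaperone Serpinh1 (307 and 323 FPKM against 228 and 293 FPKM) and the Hsp90 co-chaperone Fkbp4 (198 and 227 FPKM against 150 and 208 FPKM). Serpinh1 was higher in both DKO libraries, while the groups of Ubb and Fkbp4 overlapped. The 8 subunits of the cytosolic chaperonin CCT had a median of 0.20. Of these 0 lay below both controls (22.6% of all genes), 2 above both (25%, against 20.8%) and 6 overlapped.

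Of 16 genes of the unfolded protein response outside the members, none was called by limma, 2 had an unadjusted p under 0.05 with the lower level in DKO (7.35% of all genes), 7 lay below both controls (22.6% of all genes) and 0 above both (20.8% of all genes), with a median of -0.0673. Herpud1, which acts in ER-associated degradation, was at 18.2 and 18.7 FPKM in DKO and 26.7 and 29.4 FPKM in control (unadjusted p 0.00340, adjusted p 0.371 by limma). Sdf2l1, a co-factor of Hspa5, was at 19.2 and 20.5 FPKM against 32.1 and 24.4 FPKM (unadjusted p 0.0312). Like Hspa5, both genes were higher in both controls.

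The summed levels of 3 gene lists had the same order over the libraries as Hspa1a and Hspa1b. One was the ER stress-inducible members, at 815 and 804 FPKM in DKO and 976 and 890 FPKM in control. Its most abundant member, Hspa5, had this order by itself (330 and 305 FPKM against 496 and 383 FPKM), as did the less abundant Dnajb9. Hsp90b1, nearly as abundant (343 and 353 FPKM against 340 and 364 FPKM), and the remaining members did not. The class median log2 difference was -0.0172, so the order of this sum is not a trait of the class. Immediate early genes, which are switched on within minutes of a stimulus or of tissue handling, summed to 529 and 422 FPKM in DKO and 1709 and 762 FPKM in control. Fos, the best known of them, was at 67.0 and 46.2 FPKM in DKO and 321 and 122 FPKM in control. Of 15 such genes 10 had an unadjusted limma p under 0.05 with the lower level in DKO (7.35% of all genes). Below both controls lay 14 (22.6% of all genes), and the median log2 difference was -1.40. All 15 were highest in control replicate 1 (36.6% of all genes). None of them was at 0 in any library. Without control replicate 1, 14 of 15 still lay below the remaining control, a position held by 36.8% of all genes.

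Macrophage markers, of which 6 of 7 were in the table, summed to 392 and 374 FPKM in DKO and 1546 and 724 FPKM in control. All 6 lay below both controls (22.6% of all genes), hence also below control replicate 2 alone (36.8% of all genes). All 6 were highest in control replicate 1 (36.6% of all genes), none was at 0, and the median log2 difference was -1.49. Hmox1, a heme-degrading enzyme among the partner genes that is also a heat shock target and abundant in macrophages, was at 44.0 and 40.8 FPKM in DKO and 139 and 52.1 FPKM in control (unadjusted p 0.0826). Expressed as deviations from the gene's own mean over the libraries on the log2(FPKM + 0.5) scale, Hspa1a stood at -1.11 and -2.14 in DKO and 2.53 and 0.72 in control. The median immediate early gene stood at -0.49 and -0.74 against 1.18 and 0.12, and the median macrophage marker at -0.69 and -0.79 against 1.28 and 0.19. The part of immediate early genes, of macrophages and of control replicate 1 in the difference of Hspa1a and Hspa1b was not tested.

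The medians over the other members were much closer to 0. For the 12 other heat-inducible members they were -0.06 and -0.06 in DKO and 0.05 and 0.08 in control, over members that went both ways: 5 of the 12 were highest in control replicate 1, and Dnajb1 and Dnajb4 had the same order over the libraries as Hspa1a and Hspa1b. In DKO and control alike, the medians of the constitutive members lay between -0.04 and 0.01. Markers of other kidney cells also separated the libraries by group, and none of them was at 0 in any library. Proximal tubule genes summed to 129 and 112 FPKM in DKO and 241 and 275 FPKM in control. Below both controls lay 5 of 5 (22.6% of all genes). Erythroid genes summed to 808 and 930 FPKM against 1714 and 1170 FPKM, with 3 of 4 below both (22.6% of all genes). Stromal genes summed to 172 and 301 FPKM against 72.7 and 111 FPKM, with 7 of 7 above both controls (20.8% of all genes). Endothelial genes summed to 97.8 and 131 FPKM against 48.7 and 89.5 FPKM, with 3 of 5 above both (20.8% of all genes). The part of these cell types in the levels of the members was not tested.

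**Figure D4:**
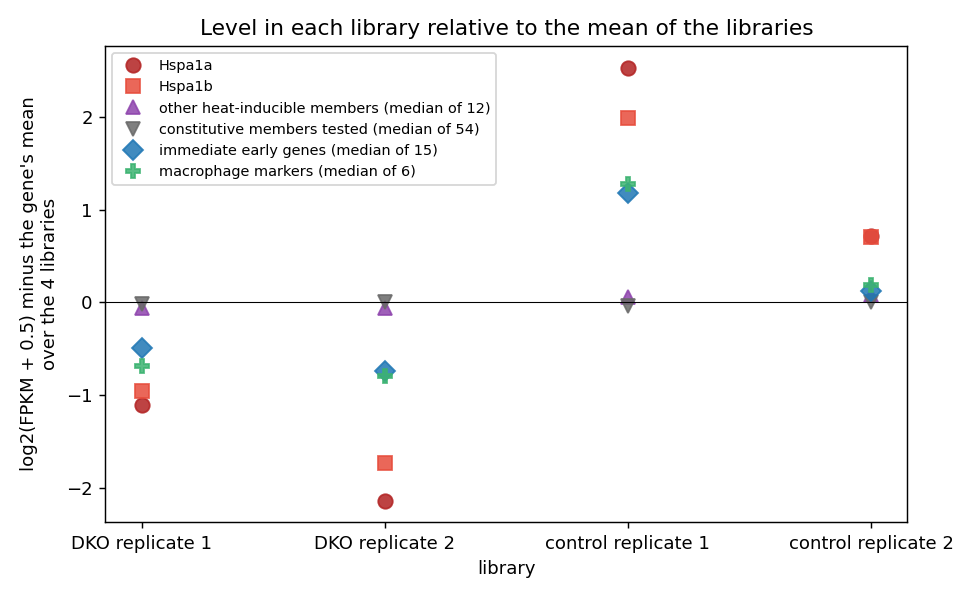
Deviation of log2(FPKM + 0.5) in each library from the gene's mean over the 4 libraries, for Hspa1a, Hspa1b and the medians of 4 gene groups. Control replicate 1 is highest for Hspa1a (2.53), the immediate early genes (1.18) and the macrophage markers (1.28), while the medians over the 12 other heat-inducible members and over the 54 constitutive members lie near 0.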

How the data were processed

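RNA of DBA-sorted cells was sequenced from 2 DKO and 2 control libraries by a strand-specific poly(A) method. The authors mapped reads to mm10 with Ensembl genes and deposited FPKM per gene and library, with TopHat 1.4.1 and Cuffdiff 2.2.1 as the tools given in the submitters' processing notes. Library scaling and the treatment of reads shared by similar genes were not given in the sources used here. In the copy used here 2 empty lines were left out. Group averages were computed from the library columns.

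FPKM are not counts, so limma 3.58.1 (R 4.3.3) was run on log2(FPKM + 0.5) with a variance trend, over the 18884 genes with a larger group average above 0.1 FPKM, and p-values were adjusted by the Benjamini-Hochberg method. A call needed an adjusted p under 0.05 and averages at least 2-fold apart. The paper's own comparison of FPKM, at a 2-fold change and a false discovery rate under 0.05, reported far more changed transcripts than were called here. Read depth is unknown apart from relative steps, so no counting intervals are given. Each library pools embryos, and p-values measure only the spread between these libraries.

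The text names every inducible member, members with an unadjusted p under 0.05, and the 5 most abundant of each family, and the 3 most abundant of the partner list. Others were named after their values were seen, and 1 result of the partner list is not reported here. The members and lists were chosen with earlier results of these data known, including values of Hspa1a and Hspa1b. Shared 100-base stretches were counted in GENCODE transcripts and promoters taken from RefSeq with Python 3.11.15. Tests were checked on simulated data. Alternatives were another pseudocount, filter, scaling, list or variance model, a replicate block, and leaving out each library.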

Additional observations from a re-analysis of the deposited data

How the results depend on the processing

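Over all genes, 4 were called (1 lower and 3 higher in DKO). This became 0 with no filter on low values, 2 with no variance trend, 6 (0 lower and 6 higher) after scaling to a common sum (TPM), 0 whichever library was left out, and 16 (10 lower and 6 higher) with a replicate block. The labels give only a shared number. Over genes, the deviation of replicate 1 from its group mean correlated at 0.105 between DKO and control. This paired fit is therefore given here alone. With the replicate block 2 members were called instead of 0: Hspa1a, with log2 difference -3.25 and adjusted p 0.0333, and Hspa1b, with -2.69 and 0.0282. Over 13 alternatives the adjusted p ran from 0.0333 to 0.960 for Hspa1a and from 0.0282 to 0.960 for Hspa1b, and leaving out 1 library gave log2 differences from -4.16 to -2.34 and from -3.34 to -2.05. The median of the heat-inducible members, -0.161, was -0.035 after TPM scaling, -0.144 after median-ratio scaling, -0.321 for a core list of 7, -0.102 with Hspa8 and Hsp90ab1 added, and -0.184 to -0.124 without single libraries. TPM scaling moved the median of all genes from -0.00916 to 0.112, that of the ER members from -0.0172 to 0.115 and that of the constitutive members from 0.0146 to 0.144. Without single libraries the last 2 ran from -0.0791 to 0.00372 and from -0.0329 to 0.0504. The counts of members below the controls without a library were chosen after the data were seen, and for the heat-inducible members they ran from 7 to 9 of 14, beside 31.2% to 43.5% of all genes.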
